A study of Mus musculus with 18 samples.

Results

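The Fc receptors for IgG were followed in mouse eosinophils cultured with apoptotic cells. The group holds 5 genes, Fcgr1, Fcgr3, Fcgr4, Fcgr2b and Fcer1g, and was found by matching gene identifiers to these symbols among the 54446 genes counted. All 5 genes were detected in all 18 libraries and passed the filter on low values in each comparison. The eosinophils were washed from the peritoneal cavity of Il5Tg mice (line NJ.1638, strain C57BL/6 in the labels), whose transgene makes IL-5 and fills the cavity with eosinophils, so they are cells of an IL-5-rich host. They were selected by removing cells with Thy1.2 or B220, and were cultured for 18 h at 5 apoptotic cells (ACs) per eosinophil. The ACs were wild-type thymocytes killed with dexamethasone, and anti-Siglec-F beads were used after culture to draw the eosinophils out before RNA was taken. Each of 6 groups had 3 libraries. In the Type 1 experiment IFN-γ and E. coli were used singly or combined. This gave the groups ACs, E. coli + ACs, IFN-γ + ACs and IFN-γ + E. coli + ACs. The paper describes the combination as IFN-γ followed by E. coli. A change of IFN-γ in the presence of E. coli thus compares the combination with E. coli + ACs, and does not mean that E. coli came first. In the IL-4 experiment the eosinophils were cultured with ACs alone or with IL-4 + ACs. Thus every group, the controls included, carried the Il5 transgene and received ACs, and each stimulus was compared with the ACs group of its own experiment. Eosinophils without ACs were not analysed here.

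Receptors of the Fcγ family bind the constant part of IgG and let a cell respond to targets coated with antibody. FcγRI (Fcgr1) binds single IgG molecules with high affinity, FcγRIII (Fcgr3) binds IgG complexes with low affinity, and FcγRIV (Fcgr4) is a mouse receptor for IgG2a and IgG2b. These activating receptors signal through the ITAM of the common γ chain (Fcer1g), which recruits Syk and is also needed to bring them to the cell surface. FcγRIIB (Fcgr2b) is the inhibitory receptor, whose ITIM recruits the phosphatase SHIP, so the balance of activating and inhibitory receptors sets how strongly a myeloid cell reacts to immune complexes. In macrophages, IFN-γ is known to raise activating receptors and IL-4 to raise FcγRIIB.

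In GRCm38, Fcgr1 (ENSMUSG00000015947.10) is on the minus strand of chromosome 3 from 96282909 to 96293969. The other members lie within 275.7 kb of chromosome 1. Fcgr2b (ENSMUSG00000026656.15) runs from 170958617 to 170976547 on the minus strand, Fcgr4 (ENSMUSG00000059089.4) from 171018920 to 171029761 on the plus strand, Fcgr3 (ENSMUSG00000059498.13) from 171051174 to 171064935 on the minus strand, and Fcer1g (ENSMUSG00000058715.11) from 171229572 to 171234365 on the minus strand. The promoters of 3 members that responded to the stimuli in different ways are shown, as the 250 bases before the transcript start in RefSeq (GRCm38.p6), read 5′ to 3′ on the strand of the gene. Capitals mark motifs. The windows are chr3:96293970-96294219 (minus strand) for Fcgr1, chr1:171018676-171018925 (plus strand) for Fcgr4 and chr1:170976072-170976321 (minus strand) for Fcgr2b.
Fcgr1: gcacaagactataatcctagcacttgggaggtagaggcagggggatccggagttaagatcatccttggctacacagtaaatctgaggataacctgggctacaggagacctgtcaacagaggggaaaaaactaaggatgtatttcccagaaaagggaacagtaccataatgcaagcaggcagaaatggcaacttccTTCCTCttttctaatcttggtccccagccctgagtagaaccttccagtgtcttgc
Fcgr4: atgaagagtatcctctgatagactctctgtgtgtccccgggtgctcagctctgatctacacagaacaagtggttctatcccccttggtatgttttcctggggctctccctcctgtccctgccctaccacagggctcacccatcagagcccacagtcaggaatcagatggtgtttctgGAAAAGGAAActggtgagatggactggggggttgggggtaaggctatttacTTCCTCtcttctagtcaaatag
Fcgr2b: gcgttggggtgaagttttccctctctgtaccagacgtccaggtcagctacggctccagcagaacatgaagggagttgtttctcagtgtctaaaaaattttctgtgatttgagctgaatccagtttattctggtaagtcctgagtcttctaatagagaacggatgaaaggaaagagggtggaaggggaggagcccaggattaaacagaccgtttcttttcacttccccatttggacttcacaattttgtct
The searched motifs, on both strands, were the STAT6 site (TTC and GAA with any 4 bases between them), the interferon-response element ISRE (GAAA and GAAA with any 2 between them) and the core of the myeloid factor PU.1 (GAGGAA). They were found in 5.9%, 3.0% and 23.3% of 32851 promoter windows of the same length. The Fcgr1 window held a PU.1 core on the opposite strand (TTCCTC) from 55 to 50 bases before the start. The Fcgr4 window held an ISRE match, GAAAAGGAAA, from 73 to 64 bases before the start, and a PU.1 core from 22 to 17. Neither the Fcgr2b nor the Fcer1g window held any of these letters, and Fcgr3 held the PU.1 core alone. The Fcgr2b and Fcgr3 windows lie inside the gene spans given above. The RefSeq starts used for them are downstream of where those spans begin on the strand of the gene. Bases before the beginning of those 2 spans were not searched. A match describes letters only, and binding was not measured.

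The expression values were reads counted at the 3′ ends of transcripts by CEL-Seq2 and normalized by the authors, and are called normalized counts. Per library, 779421 to 7782072 reads were counted on genes. In the IL-4 experiment both replicate 3 libraries were shallow (779421 reads with ACs and 849705 with IL-4 + ACs), against at least 2216917 in the other 16. The fewest reads behind any value of the 5 transcripts were 20, for Fcgr4 in replicate 3 of IL-4 + ACs. The stimuli were visible in their known targets. Cxcl9 rose by 7.60 on the log2 scale with IFN-γ + ACs, Cxcl1 by 2.67 under E. coli + ACs, and Chil3 by 2.57 with IL-4 + ACs. Of 10 eosinophil markers, Epx was near 0 in the Type 1 experiment (0 to 1.38 under IFN-γ + E. coli + ACs). The sum of the 10 was 33789 to 34366 with ACs in that experiment and 45144 to 47501 under E. coli + ACs. It was 26382 to 30632 under IFN-γ + ACs and 43460 to 50117 under IFN-γ + E. coli + ACs. In the IL-4 experiment it was 43154 to 46926 with ACs and 46085 to 52588 with IL-4 + ACs. Single markers differed from the sum. Under E. coli + ACs Csf2rb was at 16127 to 18061 (7873 to 8787 with ACs) and Siglecf at 2508 to 2817 (3169 to 3367). Of 9 tested, 2 rose and 1 fell with E. coli + ACs, and 0 rose and 5 fell with IFN-γ + ACs. With IFN-γ + E. coli + ACs 1 rose and 1 fell, and with IL-4 + ACs 1 of 10 rose. The threshold and shares of all genes are given below.

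Macrophages carry the same Fc receptors, and their transcripts were present. All 12 macrophage markers (among them C1qa, C1qb, C1qc, Mertk, Vsig4, Timd4, Marco, Cd163, Folr2, Cd5l and Lyve1) were above 0 in each group. Their summed normalized count was 12199 to 16210 with ACs in the Type 1 experiment, 4622 to 6354 under E. coli + ACs, 19491 to 28358 under IFN-γ + ACs and 5618 to 6106 under IFN-γ + E. coli + ACs. It was 18509 to 28335 with ACs in the IL-4 experiment and 14495 to 25103 with IL-4 + ACs. Thus the sum was higher with IFN-γ and lower with E. coli, without overlap with ACs, whereas the groups of the IL-4 experiment overlapped. Of the 12, 8 fell with E. coli + ACs, and 4 rose and 2 fell with IFN-γ + ACs. With IFN-γ + E. coli + ACs 2 rose and 9 fell. With IL-4 + ACs 2 (Marco and Vsig4) fell in limma. Counted in either direction, edgeR called 3 and DESeq2 4. At an unadjusted p under 0.05 limma gave 5 in either direction, and the share of all genes there was not counted. Of these 5, Mertk, Vsig4, Marco and Folr2 had a lower middle value with IL-4 + ACs than with ACs. Timd4 had a higher one (195 against 86.4). In bulk RNA, fewer cells of a type and less RNA per cell cannot be told apart. The values of other cell types were lower. Thymocyte markers summed to between 80.5 and 467 in each library, mast cell and basophil markers to between 5.64 and 67.6, B cell markers to between 97.6 and 1046 and neutrophil markers to between 1535 and 4996. Mrgprb2, a mast cell receptor, was at 0 throughout.

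**Figure D1:**
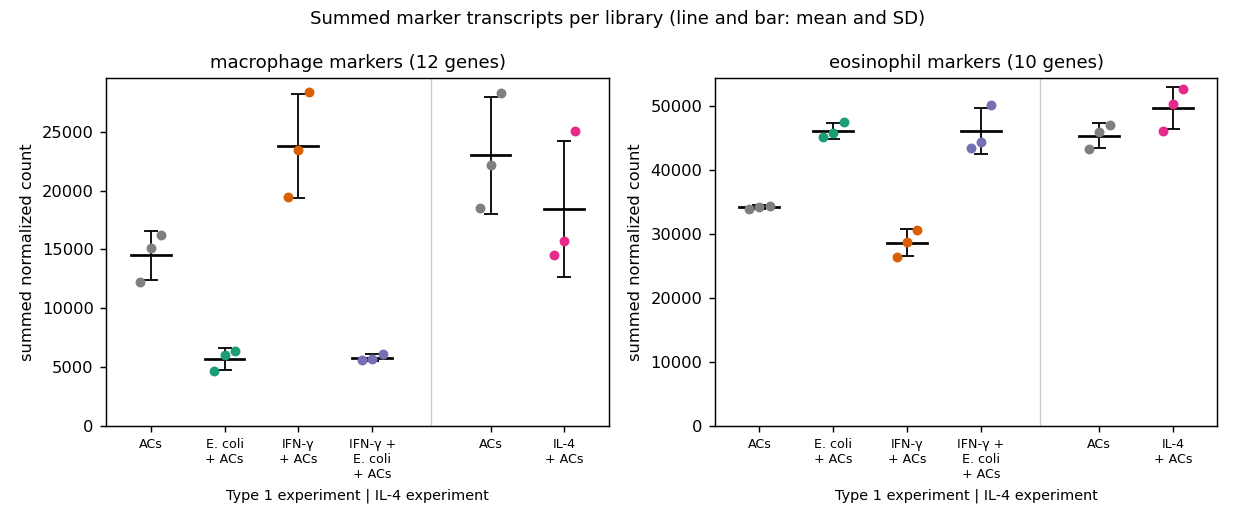
Summed normalized counts (y axis, from 0) of 12 macrophage markers and 10 eosinophil markers in each group (x axis), with the 3 libraries of a group as points ordered from low to high and the mean and SD as line and bar. The macrophage sum is 4622 to 6354 under E. coli + ACs and 19491 to 28358 under IFN-γ + ACs, on either side of 12199 to 16210 with ACs alone.

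To determine how each stimulus altered the Fc receptors in the presence of ACs, transcripts were tested with limma across all genes and called past the threshold when the adjusted p was under 0.05 and the change reached 1.5-fold. The stimuli differed in which receptors they moved. With E. coli + ACs, Fcgr3 rose and Fcgr4 fell. With IFN-γ + ACs, Fcgr4 rose and Fcgr2b fell. With IFN-γ + E. coli + ACs, Fcgr3 rose and Fcgr1 fell, and with IL-4 + ACs, Fcgr2b rose and Fcgr4 fell. Therefore 1 of the 5 transcripts rose and 1 fell in each comparison. Among all genes tested, 5.05% rose and 5.25% fell with E. coli + ACs, 11.4% rose and 9.96% fell with IFN-γ + ACs, 14.7% rose and 17.2% fell with IFN-γ + E. coli + ACs, and 0.74% rose and 0.347% fell with IL-4 + ACs. Counts of 1 among 5 are coarse, and they are read here as values of single transcripts rather than as a property of the group. The median log2 change of the 5 members was 0.00, 0.43, 0.10 and -0.23 in these comparisons, in the same order, and that of all genes lay between -0.05 and 0.00. The 3 comparisons of the Type 1 experiment share their ACs libraries.

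**Figure D2:**
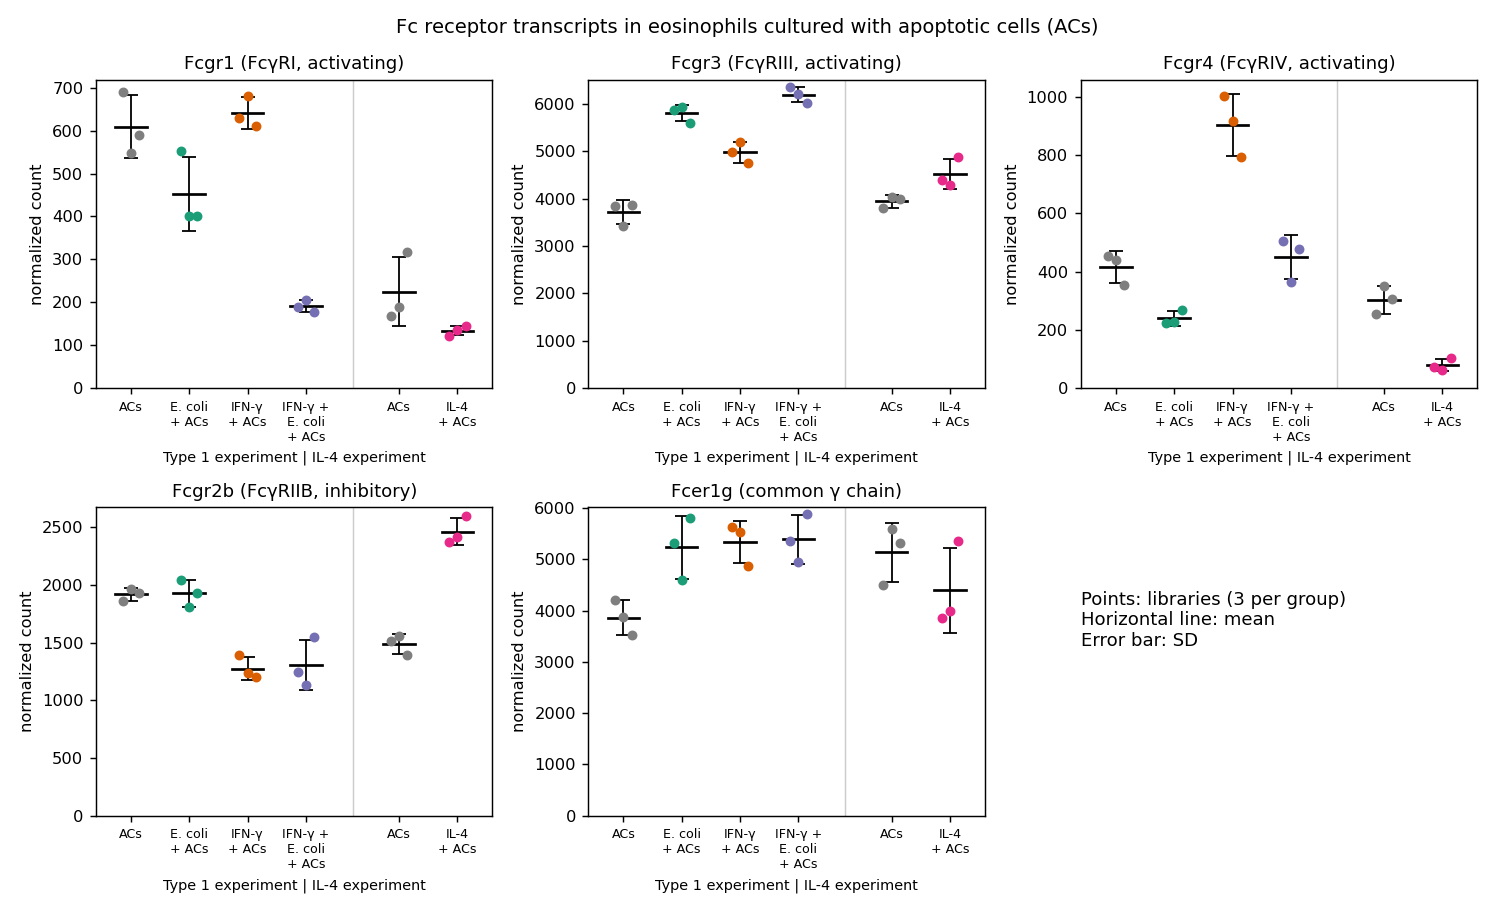
Normalized counts (y axis, from 0) of the 5 transcripts in each library, with groups on the x axis and the 3 libraries of a group as points in the order of replicates 1, 2 and 3, with the mean (line) and SD (bar). Fcgr4 is at 792 to 1004 under IFN-γ + ACs and at 62.2 to 103 with IL-4 + ACs, and Fcgr1 is at 178 to 206 under IFN-γ + E. coli + ACs.

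Fcgr1, the high-affinity receptor, fell where IFN-γ and E. coli were combined and by neither alone past the threshold. Its normalized counts in replicates 1, 2 and 3 were 690, 548 and 590 with ACs, 553, 402 and 402 under E. coli + ACs, 631, 682 and 612 under IFN-γ + ACs, and 188, 206 and 178 under IFN-γ + E. coli + ACs. The libraries with both stimuli lay below all others of the Type 1 experiment, while IFN-γ + ACs and E. coli + ACs each overlapped ACs. The means were 610 ± 73.1 with ACs, 452 ± 86.8 under E. coli + ACs, 641 ± 36.5 under IFN-γ + ACs and 191 ± 14.4 with both (SD, n = 3). With both stimuli Fcgr1 was 0.315 times its level with ACs, a log2 change of -1.67 (95% confidence interval -1.97 to -1.37, adjusted p = 2.9e-08). The change was -0.44 with E. coli (adjusted p = 0.049, 0.737 times) and 0.08 with IFN-γ (-0.22 to 0.38, adjusted p = 0.74). Without replicate 1 of E. coli + ACs, the E. coli change was -0.59 (adjusted p = 0.015), past the threshold.

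The effect of E. coli on Fcgr1 thus depended on IFN-γ. In the presence of IFN-γ, E. coli lowered Fcgr1 by a log2 change of -1.74 (adjusted p = 2.4e-07). Compared with E. coli + ACs, Fcgr1 was also lower in the combination, with a log2 change of -1.23 (adjusted p = 4.4e-06). The interaction, which is the difference between the effects of E. coli with and without IFN-γ, was -1.30 (95% confidence interval -1.73 to -0.88, adjusted p = 0.00056). Fcgr1 was the single member of 5 past the threshold for the interaction, as were 7.44% of all genes. For Fcgr3 the interaction was -0.33 (adjusted p = 0.14), for Fcgr4 -0.23 (0.58), for Fcer1g -0.42 (0.12) and for Fcgr2b 0.02 (0.96), with intervals that reached -0.61, -0.68, -0.76 and -0.33 at their lower ends. Beside these values, the macrophage marker sum was below that with ACs in both groups with E. coli and above it under IFN-γ + ACs. The part of macrophage transcripts in the Fcgr1 values was not tested.

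In the IL-4 experiment Fcgr1 was at 167, 190 and 316 with ACs and at 122, 136 and 144 with IL-4 + ACs. The IL-4 libraries were lower without overlap, and the highest ACs value was that of the shallow replicate 3, where it rested on 59 reads. The log2 change was -0.68 (95% confidence interval -1.23 to -0.14, adjusted p = 0.4) and did not pass the threshold. Without both shallow libraries it was -0.46 (adjusted p = 0.087). Over the 6 groups, Fcgr1 was ordered from IFN-γ + ACs (641) through ACs (610), E. coli + ACs (452), ACs of the IL-4 experiment (224) and IFN-γ + E. coli + ACs (191) to IL-4 + ACs (134). Neighbours overlapped between the first and the second, the second and the third, and the fourth and the fifth of these.

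Fcgr4, the IgG2a and IgG2b receptor, ranged from 62.2 to 1004 over the 18 libraries, and IFN-γ and IL-4 moved it in opposite directions. Its normalized counts were 453, 439 and 353 with ACs, 224, 226 and 268 under E. coli + ACs, 1004, 917 and 792 under IFN-γ + ACs, and 506, 363 and 476 under IFN-γ + E. coli + ACs. The IFN-γ + ACs libraries lay above all others and the E. coli + ACs libraries below all others of the experiment, and IFN-γ + E. coli + ACs overlapped ACs. The means were 415 ± 54.1, 239 ± 25, 904 ± 106 and 448 ± 75.5 in the same order (SD, n = 3). The log2 change was 1.12 with IFN-γ (95% confidence interval 0.80 to 1.44, adjusted p = 1.5e-05), or 2.18-fold, and -0.79 with E. coli (-1.11 to -0.47, adjusted p = 0.0014), or 0.579 times. With both stimuli it was 0.10 (-0.21 to 0.42, adjusted p = 0.62). E. coli lowered Fcgr4 also in the presence of IFN-γ (-1.02, adjusted p = 1e-04), and IFN-γ raised it also in the presence of E. coli (0.89, adjusted p = 0.00027).

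With IL-4 + ACs, Fcgr4 was at 73.0, 62.2 and 103, against 253, 350 and 306 with ACs of the same experiment. The lowest ACs library was more than the highest IL-4 library, which was the shallow replicate 3. The means were 303 ± 48.5 with ACs and 79.3 ± 21.0 with IL-4 + ACs (SD, n = 3), and the log2 change was -1.94 (95% confidence interval -2.45 to -1.42, adjusted p = 0.0032), or 0.261 times. Without both shallow libraries it was -2.12 (adjusted p = 2.8e-05). Marco, a scavenger receptor among the macrophage markers, was highest under IFN-γ + ACs and lowest with IL-4 + ACs, as Fcgr4 was. It was 620 to 873 with ACs, 405 to 625 under E. coli + ACs, 2824 to 3676 under IFN-γ + ACs, 1236 to 1259 with both, 795 to 1265 with ACs of the IL-4 experiment and 129 to 190 with IL-4 + ACs. With both Type 1 stimuli Marco was above ACs without overlap, where Fcgr4 overlapped ACs. Other markers went against Fcgr4, for Vsig4 changed by -0.68 and Cd163 by -3.53 under IFN-γ + ACs. The macrophage marker sum was, like Fcgr4, above ACs under IFN-γ + ACs and below it under E. coli + ACs, was below ACs with both stimuli, and overlapped between ACs and IL-4 + ACs. The part of macrophage transcripts in the Fcgr4 values was not tested. Over the 6 groups the order of Fcgr4 was IFN-γ + ACs, IFN-γ + E. coli + ACs, ACs, ACs of the IL-4 experiment, E. coli + ACs and IL-4 + ACs, where the second overlapped the third and the fourth overlapped the fifth.

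Fcgr3, the low-affinity activating receptor, was higher with each Type 1 stimulus. Its normalized counts were 3854, 3424 and 3857 with ACs, 5868, 5929 and 5604 under E. coli + ACs, 4987, 5200 and 4755 under IFN-γ + ACs, and 6353, 6212 and 6024 under IFN-γ + E. coli + ACs. The groups did not overlap, and all libraries with a stimulus were above those with ACs alone. The means were 3711 ± 249, 5800 ± 173, 4981 ± 223 and 6196 ± 165 (SD, n = 3). Fcgr3 rose by a log2 change of 0.65 with E. coli (95% confidence interval 0.45 to 0.84, adjusted p = 8.9e-05), or 1.56-fold, and of 0.74 with both stimuli (0.54 to 0.94, adjusted p = 4.7e-06), or 1.67-fold. With IFN-γ the change was 0.43 (adjusted p = 0.0022), a 1.34-fold difference that is below the 1.5-fold limit. The macrophage marker sum was below ACs in both groups with E. coli, opposite to Fcgr3, and above ACs under IFN-γ + ACs, in the same direction as Fcgr3. The part of macrophage transcripts in the Fcgr3 values was not tested.

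With IL-4 + ACs, Fcgr3 was at 4397, 4287 and 4883, against 3794, 4039 and 3984 with ACs. The IL-4 libraries were higher without overlap, yet the log2 change was 0.20 (95% confidence interval -0.05 to 0.45, adjusted p = 0.61). The order of the 6 groups was IFN-γ + E. coli + ACs, E. coli + ACs, IFN-γ + ACs, IL-4 + ACs, ACs of the IL-4 experiment and ACs of the Type 1 experiment. In this order the third and the fourth overlapped, as did the fifth and the sixth.

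Fcgr2b, the inhibitory receptor, was lower in both groups with IFN-γ and higher with IL-4. Its normalized counts were 1860, 1966 and 1926 with ACs, 2042, 1808 and 1928 under E. coli + ACs, 1389, 1234 and 1200 under IFN-γ + ACs, and 1242, 1131 and 1551 under IFN-γ + E. coli + ACs. All libraries with IFN-γ lay below all without it, and E. coli + ACs overlapped ACs. The means were 1917 ± 53.7, 1926 ± 117, 1275 ± 100 and 1308 ± 218 (SD, n = 3). The log2 change with IFN-γ was -0.59 (95% confidence interval -0.84 to -0.34, adjusted p = 0.00089), or 0.664 times, just past the 1.5-fold limit of 0.58 on this scale. It was -0.56 with both stimuli (adjusted p = 9e-04), just short of that limit, and 0.00 with E. coli (-0.24 to 0.25, adjusted p = 0.99). The size with IFN-γ was below 1.5-fold when replicate 2 of ACs (-0.57), or replicate 2 (-0.57) or 3 (-0.55) of IFN-γ + ACs was left out. With both stimuli it was past 1.5-fold without replicate 1 of ACs (-0.59) or replicate 3 of IFN-γ + E. coli + ACs (-0.69). In the presence of E. coli, IFN-γ gave a change of -0.57 (adjusted p = 0.0017). The macrophage marker sum was above ACs under IFN-γ + ACs, opposite to Fcgr2b. It was below ACs with both stimuli, in the same direction as Fcgr2b, and also below ACs under E. coli + ACs. Between ACs and IL-4 + ACs the sum overlapped. Of 9 eosinophil markers, 0 rose and 5 fell under IFN-γ + ACs. The part of cell types in the Fcgr2b values was not tested.

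IL-4 raised Fcgr2b. The normalized counts were 2375, 2411 and 2596 with IL-4 + ACs, against 1515, 1555 and 1394 with ACs, and all 3 IL-4 libraries were the highest of the 18. The means were 2461 ± 118 and 1488 ± 84.1 (SD, n = 3), and the log2 change was 0.73 (95% confidence interval 0.47 to 0.98, adjusted p = 0.015), or 1.65-fold. When replicate 1 of ACs, or replicate 1 or 2 of IL-4 + ACs was left out, the change was 0.74, 0.75 and 0.74 but the adjusted p was 0.073, 0.09 and 0.085. Without both shallow libraries the change was 0.64 (adjusted p = 0.0014). The order of the 6 groups was IL-4 + ACs, E. coli + ACs, ACs, ACs of the IL-4 experiment, IFN-γ + E. coli + ACs and IFN-γ + ACs. The second overlapped the third, and the fifth overlapped both the fourth and the sixth.

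Fcer1g, the γ chain that the activating receptors share, was higher with each Type 1 stimulus by less than 1.5-fold. Its normalized counts were 4209, 3868 and 3516 with ACs, 5315, 4590 and 5813 under E. coli + ACs, 5630, 5525 and 4874 under IFN-γ + ACs, and 5351, 4942 and 5894 under IFN-γ + E. coli + ACs. All 9 libraries with a stimulus were above the 3 with ACs alone, and the groups with a stimulus overlapped one another. The log2 changes were 0.44 (adjusted p = 0.015), 0.47 (0.0047) and 0.48 (0.0025), with folds of 1.35, 1.38 and 1.40, all below the 1.5-fold limit. The change of E. coli in the presence of IFN-γ was 0.01 (-0.23 to 0.25), so the combination was not above IFN-γ alone. The macrophage marker sum was above ACs under IFN-γ + ACs, as Fcer1g was, and below ACs in both groups with E. coli, opposite to Fcer1g. The part of macrophage transcripts in the Fcer1g values was not tested. In the IL-4 experiment, Fcer1g was at 4497, 5593 and 5313 with ACs and at 3858, 3985 and 5351 with IL-4 + ACs, which overlapped, and the change was -0.23 (-0.57 to 0.11, adjusted p = 0.67). The order of the means was IFN-γ + E. coli + ACs (5396), IFN-γ + ACs (5343), E. coli + ACs (5239), ACs of the IL-4 experiment (5134), IL-4 + ACs (4398) and ACs (3864), and each group overlapped its neighbour.

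**Figure D3:**
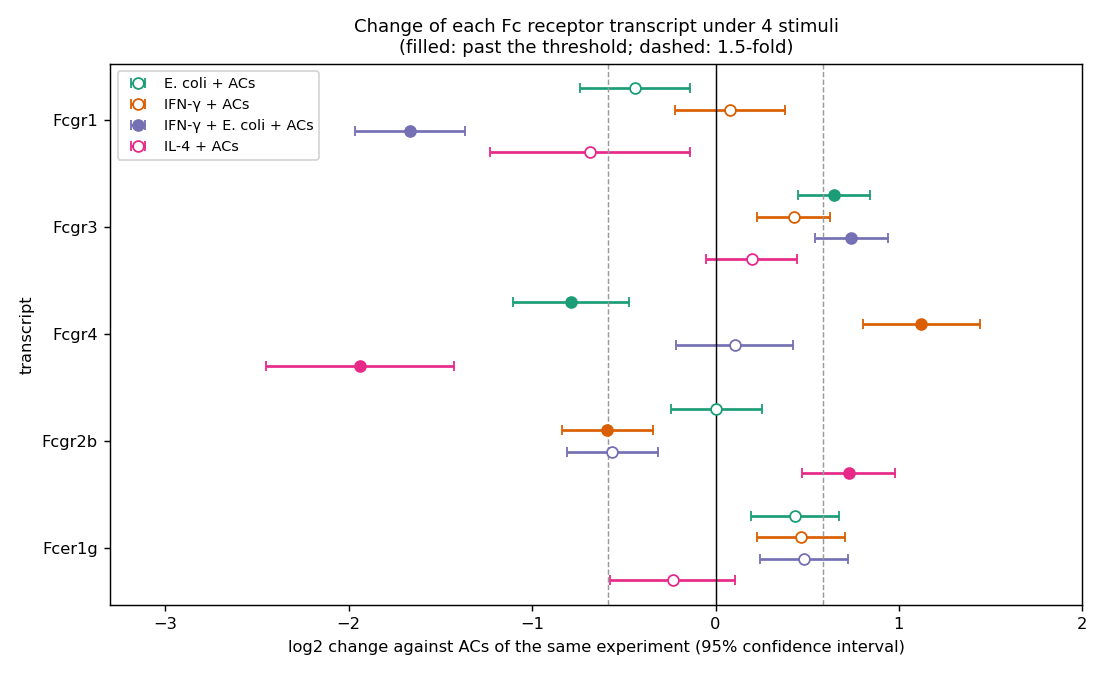
Log2 change of each transcript (y axis) against the ACs group of the same experiment (x axis), with 95% confidence intervals, for the 4 stimuli. Filled points passed the threshold and dashed lines mark 1.5-fold. IL-4 lies at -1.94 and IFN-γ at 1.12 for Fcgr4, whereas for Fcgr2b IL-4 lies at 0.73 and IFN-γ at -0.59.

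Next, the effect of IL-4 was compared with that of IFN-γ, each against the ACs libraries of its own experiment and in a single fit. The difference of effects was -3.06 for Fcgr4 (95% confidence interval -3.60 to -2.52, adjusted p = 4.6e-08), 1.32 for Fcgr2b (0.98 to 1.65, adjusted p = 5.5e-06) and -0.70 for Fcer1g (-1.09 to -0.31, adjusted p = 0.014). It was -0.76 for Fcgr1 (adjusted p = 0.059) and -0.23 for Fcgr3 (adjusted p = 0.28). Thus 3 of 5 members passed an adjusted p under 0.05, against 14.7% of all genes, with no fold limit. In the presence of IFN-γ, E. coli moved 2 members past the threshold, Fcgr1 and Fcgr4, both lower, against 14.6% of all genes in either direction. In the presence of E. coli, IFN-γ moved 2, Fcgr1 lower and Fcgr4 higher, against 19.4% of all genes.

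A culture labelled with ACs alone was run in both experiments, and Fcgr1 differed between them. With ACs, Fcgr1 was at 548 to 690 in the Type 1 experiment but at 167 to 316 in the IL-4 one, a log2 difference of -1.49 (95% confidence interval -1.98 to -0.997, adjusted p = 0.0012), or 0.356 times. Fcgr1 was 1 of 5 members past the threshold here, as were 19.2% of all genes. The difference was -0.37 for Fcgr2b (adjusted p = 0.027), -0.46 for Fcgr4 (0.067), 0.41 for Fcer1g (0.035) and 0.09 for Fcgr3 (0.57). The macrophage marker sum was higher in the ACs libraries of the IL-4 experiment (18509 to 28335) than in those of the Type 1 experiment (12199 to 16210), the opposite direction to Fcgr1. The part of macrophage transcripts in this difference was not tested, and experiment and normalization cannot be told apart here. No stimulus was added on either side of this comparison, and levels are therefore best read within an experiment.

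To place activating beside inhibitory receptors, each activating transcript was divided by Fcgr2b in the same library and set relative to the mean ratio of the ACs libraries of the same experiment. The ratio removes the scaling of a library, and it is given with no test because its parts were tested above. Fcgr4 over Fcgr2b was 3.27 ± 0.20 times ACs with IFN-γ + ACs, 1.59 ± 0.25 under IFN-γ + E. coli + ACs, 0.575 ± 0.068 under E. coli + ACs and 0.157 ± 0.034 with IL-4 + ACs (SD, n = 3). Fcgr3 over Fcgr2b was 2.02 ± 0.16, 2.49 ± 0.43, 1.56 ± 0.12 and 0.692 ± 0.020 in the same order. Fcgr1 over Fcgr2b was 1.58 ± 0.15, 0.469 ± 0.11, 0.734 ± 0.10 and 0.356 ± 0.018. With IFN-γ + ACs all 3 ratios were above 1 in each library, from 1.42 to 3.43. With IL-4 + ACs all 3 were below 1 in each library, from 0.127 to 0.709. The 3 ratios share Fcgr2b, itself 0.664 times ACs with IFN-γ and 1.65 times with IL-4, so their agreement is partly built in. Undivided, Fcgr1 was 1.06 times ACs with IFN-γ and Fcgr3 was 1.15 times ACs with IL-4, neither past the threshold. With both Type 1 stimuli the ratios of Fcgr3 and Fcgr4 were above 1 and that of Fcgr1 below 1. With E. coli + ACs the ratio of Fcgr3 alone was above 1.

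**Figure D4:**
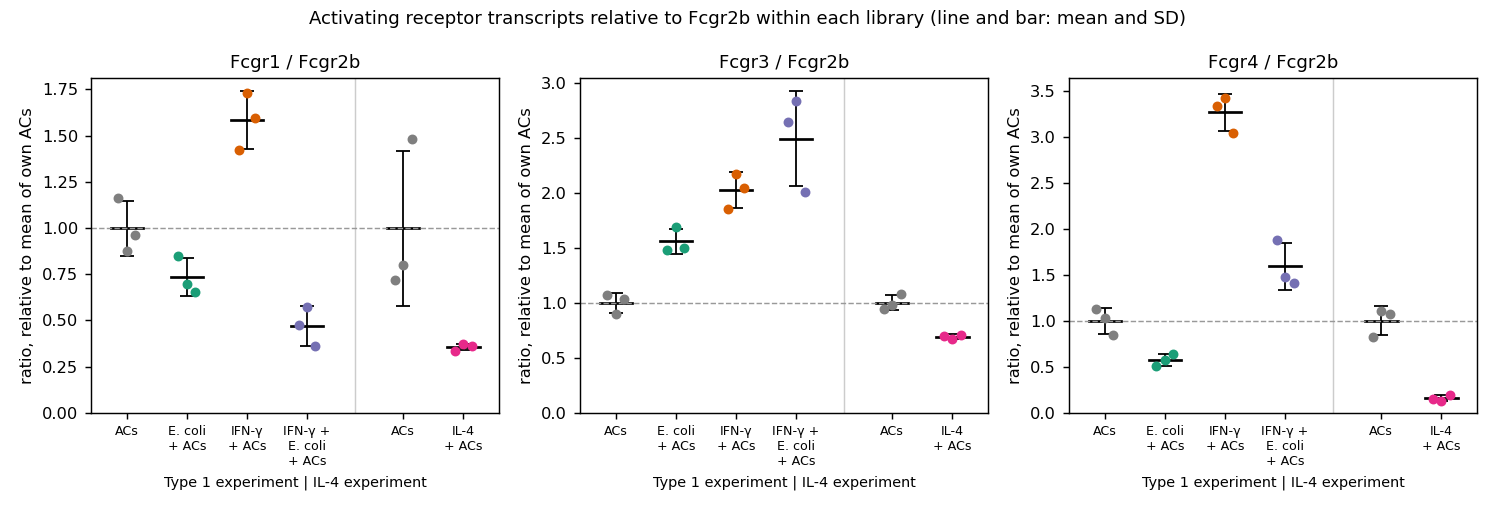
Ratio of Fcgr1, Fcgr3 and Fcgr4 to Fcgr2b in each library, relative to the mean of the ACs libraries of the same experiment (y axis, linear, from 0; dashed line at 1), with groups on the x axis, the 3 libraries as points and the mean and SD as line and bar. Ratios with IFN-γ + ACs are 1.42 to 3.43 and ratios with IL-4 + ACs are 0.127 to 0.709.

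Other receptors use the γ chain too. Of 9 listed, 4 were expressed well enough to be tested: Clec4e (Mincle) and Clec4d, which recognize mycobacterial glycolipid, Clec4n (Dectin-2), which recognizes mannans, and Pira2, an activating paired immunoglobulin-like receptor. With IFN-γ + ACs, 3 of the 4 rose and 1 fell, against 11.4% and 9.96% of all genes. Clec4n rose by 3.62 on the log2 scale (adjusted p = 7.3e-12), Clec4e by 2.11 (3.5e-09) and Clec4d by 0.74 (0.00043), and Pira2 fell by 1.07 (6.7e-06). With IFN-γ + E. coli + ACs, 2 rose, Clec4n by 2.42 (2.1e-09) and Clec4e by 2.37 (4.5e-10). With E. coli + ACs Clec4e rose by 1.90 (6.3e-08) and Clec4n by 1.18 (8.1e-05), and with IL-4 + ACs Clec4d fell by 2.11 (4e-04). Pira2 has close relatives whose reads the counting could split, so its value is uncertain. The median log2 change of the 4 was 0.62 under E. coli + ACs, 1.42 under IFN-γ + ACs, 1.25 with both and -0.88 with IL-4 + ACs, against -0.05 to 0.00 over all genes.

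Of 14 other receptors for immunoglobulin, 3 passed the filter in the Type 1 experiment, and 4 did so with IL-4. They were Fcgrt, the neonatal Fc receptor that recycles IgG, Trim21, a cytosolic receptor for the Fc part, Fcrls, an Fc receptor-like scavenger receptor, and in the IL-4 experiment also Fcrla. With IFN-γ + ACs, Fcrls fell by 1.61 (adjusted p = 0.0035). With IFN-γ + E. coli + ACs, Trim21 rose by 1.04 (1e-05), and Fcrls fell by 2.45 (4.1e-05) and Fcgrt by 1.54 (0.0011). With E. coli + ACs, Fcgrt fell by 1.02 (0.048). With IL-4 + ACs, 0 of 4 passed in limma, edgeR or DESeq2, where 0.74% of all genes rose and 0.347% fell in limma. In limma 1 (Fcrla) had an unadjusted p under 0.05, and the share of all genes there was not counted. Ms4a2, the β chain of the high-affinity IgE receptor, was at 0 in all groups of the Type 1 experiment.

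Downstream of the receptors, 31 genes of activating signalling and 12 of inhibitory signalling were listed, and 29 and 12 were tested. With IFN-γ + ACs, 5 activating genes of 29 rose and 1 fell, against 11.4% and 9.96% of all genes. The largest changes were in the kinases Src (2.28, adjusted p = 0.00033), Fyn (1.20, 0.0018) and Tec (0.93, 0.0015) and in the adaptor Lat2 (0.91, 0.011). Gab2 rose as well (0.83) and the kinase Fgr fell by 0.64. With IFN-γ + E. coli + ACs, 5 rose and 1 fell, against 14.7% and 17.2% of all genes. Here Src changed by 3.18 (5.6e-06), Tec by 1.98 (2.2e-07), the PI3-kinase subunit Pik3r1 by -0.94 (1.3e-05) and the adaptor Gab2 by 0.77 (0.00038). Shc1 (0.71) and the kinase Syk (0.61), which docks on the γ chain, rose as well. With E. coli + ACs, Src (1.90) and Tec (0.62) rose and Fyn fell by 0.82. With IL-4 + ACs, 0 of 29 passed in limma, edgeR or DESeq2. Of all genes, 0.74% rose and 0.347% fell in limma. At an unadjusted p under 0.05 limma gave 6 of 29, and the share of all genes there was not counted. Among the inhibitory genes, Pag1, an adaptor for the kinase Csk, rose by 1.19 (0.025) under IFN-γ + ACs and the adaptor Dok3 fell by 0.90 (0.00067). With IFN-γ + E. coli + ACs the phosphatase Ptpn11 (0.73, 0.0011) and the ubiquitin ligase Cbl (0.63, 2e-04) rose and Dok3 fell by 0.81 (0.0011). With E. coli + ACs, Ptpn11 rose by 0.67 (0.0063). With IL-4 + ACs, 0 of 12 passed in limma, edgeR or DESeq2. At an unadjusted p under 0.05 limma gave 3, again with no share of all genes counted. The median log2 change of the activating list was 0.15 under E. coli + ACs, 0.01 under IFN-γ + ACs, 0.24 with both and 0.07 with IL-4 + ACs, and that of the inhibitory list was 0.18, 0.12, 0.06 and -0.13 in the same order. Macrophages use these signalling genes as well.

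The members on chromosome 1 lie close together, and the neighbours Fcgr2b and Fcgr4 moved in opposite directions under each cytokine. Fcgr2b, Fcgr4 and Fcgr3 follow one another with gaps of 42.4 and 21.4 kb, and Fcer1g lies 164.6 kb further. With IFN-γ + ACs, Fcgr4 rose and Fcgr2b fell, and with IL-4 + ACs they moved the other way round. Fcgr3 and Fcer1g were both above ACs with each Type 1 stimulus, without overlap. The interval holds 17 annotated genes, 11 of them protein coding, of which 6 had a mean normalized count of at least 10. The 2 that are not Fc receptors were Sdhc, a subunit of succinate dehydrogenase, and Tomm40l, a mitochondrial import channel. Tomm40l changed by -1.20 under IFN-γ + ACs (adjusted p = 0.025) and by -1.65 with both stimuli (0.0021), and Sdhc did not pass the threshold in the 4 comparisons. A gene antisense to Fcgr2b, Gm38204, overlaps its exons and was at 0. In the last 500 bases of the transcripts, where CEL-Seq2 reads fall, 2.2% of the 50-base stretches of Fcgr2b also occurred in Fcgr3 and 0.0% of those of Fcgr1, Fcgr3, Fcgr4 and Fcer1g occurred in another gene.

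As a description, transcripts were correlated over the 12 libraries of the Type 1 experiment, which share groups, so that the values mostly reflect the 4 group means. Fcgr3 and Fcer1g went together (Pearson r = 0.78), whereas Fcgr1 and Fcgr3 (-0.67) and Fcgr2b and Fcgr4 (-0.65) went apart. Among 6746 genes with a mean of at least 50, those most like Fcgr4 were Anxa4 (0.98), Sdc3 (0.98) and Scarb2 (0.96), and Asb2 was the most opposite (-0.97). Those most like Fcgr1 were Slc25a5 (0.97), P2rx4 (0.97) and 1110008P14Rik (0.96), with Dusp6 the most opposite (-0.97). For Fcgr3 they were Pla2g7 (0.98), Plaur (0.97) and Ehd1 (0.97), opposite S100a10 (-0.96). For Fcgr2b they were Ddx55 (0.95), Rnaseh2c (0.95) and Enah (0.94), opposite H2-T23 (-0.96), and for Fcer1g Dynll1 (0.94), Fam104a (0.92) and Surf4 (0.92), opposite Stx16 (-0.92).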

How the data were processed

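The 18 libraries of eosinophil RNA were made by CEL-Seq2. For each gene the authors deposited a signal, namely the read count of a library divided by a DESeq2 size factor, for 54446 genes. In every library the values were whole multiples of a single step, so whole reads were recovered for all of them. The submitters' processing notes name FastQC 0.11.5, Trim Galore, cutadapt 1.10, TopHat2 2.1.0, Bowtie2 2.2.6, HTSeq 0.6.1, DESeq2 1.26.0 and GRCm38. The methods describe 2 alignment pipelines, and the aligner and counter in the notes are those of the one with TopHat2. Gene symbols were matched for 54409 identifiers.

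Groups came from the labels, and the 2 ACs groups were told apart by the naming of their descriptions. Comparisons were made in R 4.3.3 by limma 3.58.1 (lmFit, eBayes with trend) on log2 of the normalized count plus 1, for genes with a mean of at least 10. Folds are therefore on the log2(value + 1) scale. P-values were adjusted by Benjamini-Hochberg over all genes, 10166 in the Type 1 experiment, 10669 in the IL-4 experiment, 10414 for the difference of effects and 10592 for ACs against ACs. The study's methods call replicates biological, whereas the labels do not tie libraries to mice, and p-values measure the spread between these libraries. The chi-square per degree of freedom between replicates was 4.52 to 14.79, above counting error. The members and the lists were chosen with earlier results of these data known.

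The genes named are the 5 members, at most 4 per list and comparison past the threshold with the largest change in the comparisons with IFN-γ, and the 3 most alike and 1 most opposite to each member. Others were named after their values were seen. They were Marco, Vsig4, Mertk, Timd4, Folr2, Mrgprb2, Ms4a2, the positive controls and genes of the chromosome 1 interval. So were the signalling genes beyond 4 and list genes called with E. coli or IL-4. Promoter sequences were found for 5 members. On simulated data with 200 genes changed 4-fold, limma recovered 93.5% in the IFN-γ design with 9 false calls. It recovered 76.5% in the IL-4 design with 5 and 78% of the interaction with 2. Smaller changes, such as those of Fcgr3 and Fcgr2b, were not simulated. Alternatives were a pseudocount of 5, no filter, a mean of at least 50, a replicate block, array weights, rescaling to a common upper quartile, recovered reads tested with DESeq2 1.42.0 and with edgeR 4.0.16, a single fit of all 18 libraries, a call without a fold threshold, and each library left out in turn. Tables and plots were made with Python 3.11.15, numpy 2.4.6, pandas 2.3.3, scipy 1.17.1 and matplotlib 3.10.9.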

Additional observations from a re-analysis of the deposited data

Results flagged for a closer look

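The effects of E. coli on Fcgr1 with and without IFN-γ differed, with an interaction of -1.30 on the log2 scale (limma, adjusted p = 0.00056). In all 3 libraries with both stimuli Fcgr1 was below all libraries with either stimulus. The effects of IL-4 and IFN-γ, each against the ACs libraries of its own experiment, differed by -3.06 for Fcgr4 (adjusted p = 4.6e-08), by 1.32 for Fcgr2b (5.5e-06) and by -0.70 for Fcer1g (0.014). Fcgr4 and Fcgr2b passed the threshold in opposite directions under the 2 cytokines. For Fcer1g neither effect did. With 3 libraries in each group, no search for outlying libraries within a group was made.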

How the results depend on the processing

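Over the 5 members and 9 comparisons, 694 of 740 values under alternatives kept their direction and their side of the threshold. In 24 the sign turned, and each of these was a change near 0 that did not pass the threshold. In 14 a change came past the threshold and in 8 it no longer did. Rescaling to a common upper quartile shifted the median log2 change of all genes with IFN-γ + E. coli + ACs from -0.05 to -0.18, and of IFN-γ in the presence of E. coli from -0.04 to -0.15. Changes are to be read relative to these shifts. Among called genes, for IFN-γ + E. coli + ACs the share that was higher moved from 46.1% to 34.4%, and from 50.6% to 36.3% for IFN-γ in the presence of E. coli. With IFN-γ + E. coli + ACs it was 57.5% for a mean of at least 50. Under the upper quartile Fcgr2b was -0.0275 with E. coli, -0.70 with both stimuli, -0.0237 for E. coli in the presence of IFN-γ and -0.68 for IFN-γ in the presence of E. coli. Fcgr1 was -0.0109 with IFN-γ and Fcgr4 -0.0351 with both. Fcer1g was -0.0374 for E. coli in the presence of IFN-γ and -0.0622 for IFN-γ in the presence of E. coli, where Fcgr3 was -0.0124. With array weights Fcgr2b was -0.58 with IFN-γ, so 1 member passed, -0.0036 for E. coli in the presence of IFN-γ, -0.59 for IFN-γ in the presence of E. coli and -0.0108 for the interaction, and Fcer1g was -0.021 for E. coli in the presence of IFN-γ. EdgeR gave -0.002 and DESeq2 -8e-04 for Fcgr2b with E. coli.

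For the difference between the effects of IL-4 and IFN-γ, Fcgr1 passed an adjusted p under 0.05 with a mean of at least 50 (-0.76, 0.046), array weights (-0.55, 0.043) and DESeq2 (-0.72, 0.049). The number of genes past the threshold with IL-4 + ACs was 116, against 208 with no filter, 745 with array weights, 212 with edgeR, 209 with DESeq2, 221 with all 18 libraries and 656 without both shallow libraries, an alternative chosen after seeing the data. The higher share moved from 68.1% to 52.2% with array weights, 52.5% with all 18 libraries and 52.6% without the shallow ones. For the interaction 495 genes passed with all 18 libraries against 756, and for IL-4 minus IFN-γ 2773 with array weights against 1529. With no fold threshold 4 members passed with E. coli, with IFN-γ and with both. The share of all genes at that setting was not counted, so these counts are not read as a property of the group. The causes were not tested.

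Same-numbered libraries were weakly correlated. The correlation of their deviations averaged 0.007 in the Type 1 experiment (-0.087 to 0.09) and 0.028 in the IL-4 experiment (0.015 to 0.036). For different numbers the averages were -0.004 and -0.011. The IL-4 experiment has 3 same-numbered pairs, and both its replicate 3 libraries were shallow. Whether the numbers pair libraries cannot be told from these values. With the replicate block, 74 genes and 1 member passed with IL-4 + ACs, where Fcgr2b was 0.73 with an adjusted p of 0.059, and Fcgr1 passed for IL-4 minus IFN-γ (-0.76, 0.028). No block was possible for ACs against ACs, whose groups come from different experiments.

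With each library left out in turn, Fcgr1 with E. coli was -0.59 to -0.35 and for IL-4 minus IFN-γ -0.95 to -0.49. Fcgr2b was -0.0381 to 0.0497 with E. coli, -0.65 to -0.55 with IFN-γ, -0.69 to -0.47 with both, 0.68 to 0.76 with IL-4, -0.10 to 0.13 for E. coli in the presence of IFN-γ, -0.70 to -0.47 for IFN-γ in the presence of E. coli and -0.11 to 0.12 for the interaction. Fcgr4 with both was -0.0073 to 0.25. Fcer1g was -0.0521 to 0.0749 for E. coli in the presence of IFN-γ and -0.0465 to 0.12 for IFN-γ in the presence of E. coli. Members past the threshold numbered 1 to 2 with IFN-γ and with IL-4. Genes past it numbered 47 to 130 with IL-4, 400 to 1026 for the interaction and 1264 to 2734 for ACs against ACs. With an arm of 2 libraries, the spread is pooled over the groups. In the shallow libraries 3 reads stand for normalized counts of 16.08 and 15.42, so low values are coarse there.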
